A study of Mus musculus with 10 samples.

Results

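Interferons, IL-12 and IL-18 form a linked circuit, and the transcripts of 10 of its genes were followed in activated B cells of Irf4-/- and Irf4+/+ mice. The genes are Ifng and Ifnb1 (interferons), Ifngr1, Ifngr2, Ifnar1 and Ifnar2 (interferon receptor chains), Il18 (a cytokine), Il18r1 and Il18rap (its receptor chains) and Il12rb1 (a chain of the IL-12 receptor). They were taken by name, with every probe set that the platform annotation gave to them alone: 15 probe sets of 10 genes, out of 34945 probe sets of 18193 genes. The tissue culture was the same for all 10 samples: B cells of C57BL/6 littermates aged 12 weeks, left after magnetic removal of other spleen cells and cultured for 3 days with anti-CD40 at 1 mg/ml, as the labels give it, and IL-4 at 20 ng/ml. There were 5 Irf4-/- samples, from mice with both Irf4 alleles disrupted, and 5 Irf4+/+ samples, each on 1 single-colour array. The source of each sample (its own mouse, or a shared one) is not stated, and the spread behind each p-value may therefore be technical.

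IFN-gamma, the product of Ifng, is the type II interferon, made mainly by natural killer cells and T cells, for example when IL-12 and IL-18 act together. It binds a receptor of Ifngr1, which holds the ligand, and Ifngr2, which completes signalling through the kinases Jak1 and Jak2. Type I interferons such as IFN-beta (Ifnb1) bind Ifnar1 and Ifnar2, which signal through Tyk2 and Jak1 to a complex that holds Stat2 and Irf9. B cells carry these receptors and answer either interferon by inducing defence and antigen presentation genes. IRF4, which is itself a member of the interferon regulatory factor family, binds DNA weakly alone and pairs with ETS or AP-1 proteins.

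The start regions of 4 genes that rose are shown because the motifs of interferon signalling can be looked for in them: Ifng, the ligand gene with the largest change, and the receptor genes Ifnar2, Ifnar1 and Ifngr2, which lie in 1 cluster. The sequences are from RefSeq, build GRCm38.p6, plus strand, and run 5′ to 3′ over 250 bases before and 50 after the start: chr10:118440796-118441095 (Ifng), chr16:91372533-91372832 (Ifnar2), chr16:91484965-91485264 (Ifnar1) and chr16:91546809-91547108 (Ifngr2). Capitals mark the gamma-activated site TTCNNNGAA, a pattern of interferon-gamma responses.
Ifng: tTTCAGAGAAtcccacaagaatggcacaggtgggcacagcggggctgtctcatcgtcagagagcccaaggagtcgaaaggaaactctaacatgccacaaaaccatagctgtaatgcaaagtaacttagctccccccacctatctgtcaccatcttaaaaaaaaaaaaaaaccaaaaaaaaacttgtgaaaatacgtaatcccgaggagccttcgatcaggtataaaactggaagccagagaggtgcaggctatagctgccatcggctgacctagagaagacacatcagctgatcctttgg
Ifnar2: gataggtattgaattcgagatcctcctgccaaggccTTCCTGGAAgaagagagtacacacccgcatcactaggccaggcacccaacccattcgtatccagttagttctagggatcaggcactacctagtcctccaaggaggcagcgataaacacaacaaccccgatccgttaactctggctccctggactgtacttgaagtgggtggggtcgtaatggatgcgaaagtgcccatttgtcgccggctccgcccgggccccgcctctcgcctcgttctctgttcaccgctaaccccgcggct
Ifnar1: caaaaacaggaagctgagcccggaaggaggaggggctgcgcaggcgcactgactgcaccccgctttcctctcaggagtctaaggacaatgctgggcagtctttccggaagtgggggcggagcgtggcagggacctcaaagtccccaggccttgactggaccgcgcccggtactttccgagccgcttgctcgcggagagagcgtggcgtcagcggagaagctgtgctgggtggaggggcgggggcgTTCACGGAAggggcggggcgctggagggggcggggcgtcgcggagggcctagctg
Ifngr2: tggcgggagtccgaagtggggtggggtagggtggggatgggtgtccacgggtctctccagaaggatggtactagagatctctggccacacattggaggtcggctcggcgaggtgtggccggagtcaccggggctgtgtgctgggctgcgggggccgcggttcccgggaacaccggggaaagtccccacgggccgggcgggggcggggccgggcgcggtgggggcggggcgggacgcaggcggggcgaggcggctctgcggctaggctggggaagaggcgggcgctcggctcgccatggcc
The gamma-activated pattern, which reads the same on both strands, began at position -249 relative to the start of Ifng, -214 of Ifnar2 and -5 of Ifnar1, and the Ifngr2 window held none. Of the 11 member windows 4 held it, the other being 1 of 3 windows of Il18r1 (positions -219 and -152), a gene that was too dim to test and was not called with no threshold. Of 32851 such windows in the table, 8.3% held it. Further patterns were searched on both strands: the interferon-stimulated response core, GAAA, any 2 bases and GAAA (3.44% of windows), the ETS-IRF composite, GGAA, any 2 bases and GAAA (2.72%), and the AP-1-IRF composites, TGANTCA, any 4 bases and GAAA (0.119%) or GAAA directly before TGANTCA (0.125%). The first pair can overlap each other. They had no match in any of the 11 windows, which belong to the 9 member genes found in the table. A match is a description of the letters, not of binding.

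Pairs of arrays of 1 genotype correlated at r = 0.977 to 0.985, and pairs of different genotype at 0.938 to 0.945, across 12253 genes that are not independent replicates. Irf4 transcript was still measured in Irf4-/- arrays, at 2638 to 2989 signal units against 3426 to 3978 in Irf4+/+ arrays, and where its probe set lies relative to the disrupted part is not given, so it does not check the genotype. The 3′ probe set of the 18S RNA control read 126.2 to 289.0 in Irf4-/- and 58.1 to 104.9 in Irf4+/+ arrays. Its 5′ probe set read 68.6 to 162.5 in Irf4-/- and 15.3 to 50.1 in Irf4+/+ arrays. The middle (M) probe set read 65.4 to 157.2 in Irf4-/- and 6.3 to 46.5 in Irf4+/+ arrays. The part of this control's difference in the results was not tested. B cell genes were bright in both genotypes. Ms4a1, the surface protein CD20, averaged 14549 ± 761 in Irf4-/- and 9007 ± 755 in Irf4+/+ arrays (mean ± SD of 5 arrays). Cd79b, a chain of the antigen receptor, averaged 13249 in Irf4-/- and 5978 in Irf4+/+ arrays. For Cd22, an inhibitory B cell receptor, the means were 6277 and 3761, a rise of 1.67-fold (adjusted p = 9.05e-09 in limma). These levels show B cell transcripts, and how pure the cultures were was not tested. Gzma, listed below with natural killer cell markers, was also bright in Irf4-/- arrays (mean 8256, against 818.6 in Irf4+/+ arrays). All 7 tested B cell markers were called higher in Irf4-/- samples, where 23.3% of all 12253 tested genes were called higher and 47.2% either way.

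Most of the tested transcripts of this circuit were called higher in Irf4-/- samples. Of the 9 member genes bright enough to test, 7 were called higher in Irf4-/- samples, 0 were called lower and 2 were not called, where 23.3% of all 12253 tested genes were called higher, 23.9% lower and 47.2% either way. A gene was called at a Benjamini-Hochberg adjusted p under 0.05 in limma, over all tested genes, on log2(signal + 7.9). Of the 7, 4 were at least 2-fold higher by this scale (5.42% of all genes), namely Ifng, Il12rb1, Il18rap and Ifngr2. For 5 of the 9 the 2 genotypes did not overlap, all higher in Irf4-/- (17.4% of all genes did so, and 35.7% in either direction). Among the 13 member probe sets above the threshold, 10 were called higher and 0 lower, against 21.1% of all 22535 probe sets higher and 42.5% either way. Of the 13, 4 were called at least 2-fold higher (4.74% of all probe sets) and 6 did not overlap (31.5% of all, or 15.5% higher in Irf4-/-). The median log2 fold change of the 9 was 0.81, against 0.0044 over all tested genes. The count of 9 includes no Il18r1, whose mean over all arrays lay under the signal threshold of 25.1. Ifng and Il18rap averaged 11.1 and 22.9 in Irf4+/+ samples, also under 25.1, and passed the threshold only through the Irf4-/- arrays. They could hardly have been called lower, so they add little to the direction of these counts. The shares of all tested genes are the background for each list count below as well. Some lists share genes (Stat4, Eomes, Usp18 and Irf7), so their counts are not independent.

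**Figure D1:**
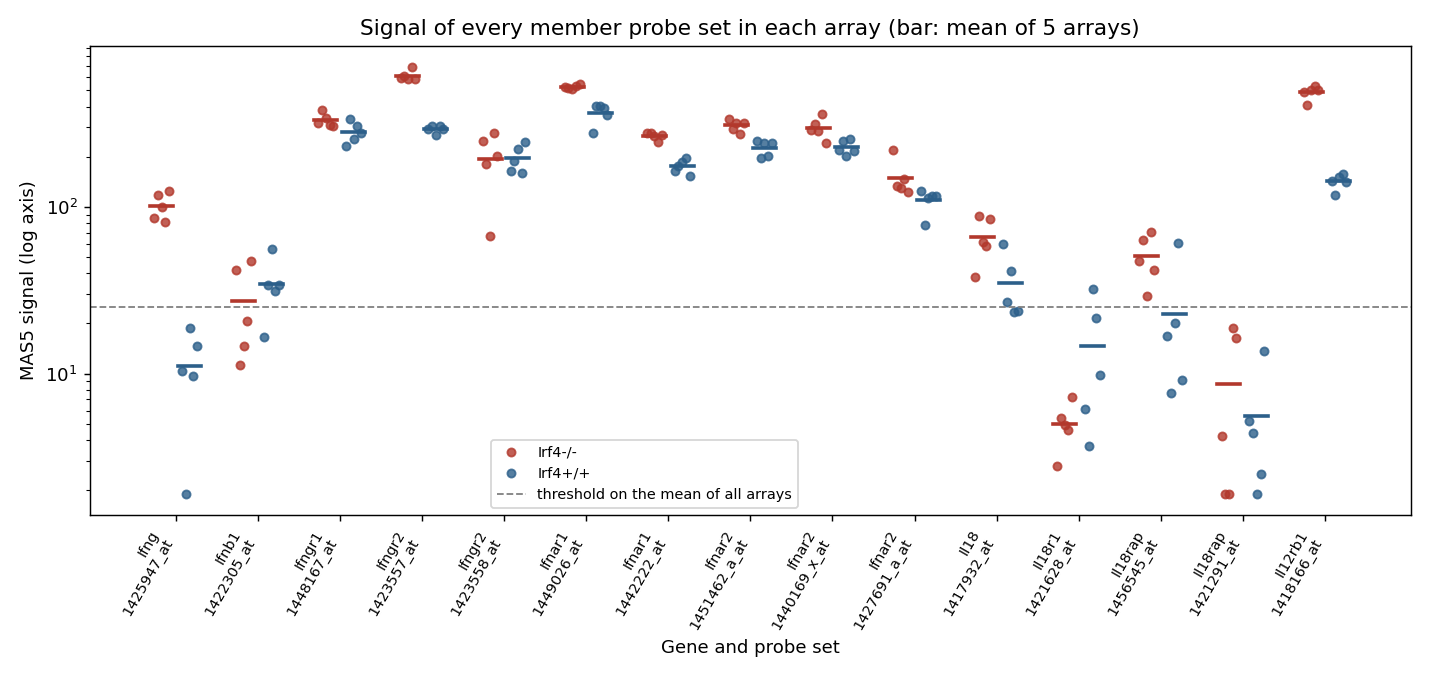
Signal of all 15 member probe sets in each array (points, log axis), Irf4-/- in red left of Irf4+/+ in blue, with the mean of 5 arrays as a bar and the dashed line at 25.1, the threshold set on the mean of all arrays. The genotypes separate for Ifng, the brighter Ifngr2 probe set, both Ifnar1 probe sets, the brightest Ifnar2 probe set and Il12rb1, and overlap for the other 9.

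Among the ligands, Ifng rose and Ifnb1 did not pass the test. Ifng read 86.2, 118.4, 99.4, 80.9 and 124.0 signal units in Irf4-/- samples, against 10.4, 1.9, 18.8, 9.7 and 14.6 in Irf4+/+ samples. The lowest Irf4-/- array thus stood well above the highest Irf4+/+ array, and all Irf4+/+ arrays were under 25.1, in the dim range of the array. The mean was 101.8 ± 19.1 in Irf4-/- and 11.1 ± 6.30 in Irf4+/+ samples (mean ± SD of 5 arrays each), and the log2 fold change came to 2.59 with SE 0.271 (adjusted p = 6.72e-07 in limma), or 6.02-fold. With other pseudocounts the fold ran between 3.45 and 9.96.

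Ifnb1, the type I interferon made early in antiviral responses, was dim in both genotypes. It read 42.1, 11.3, 14.6, 20.8 and 47.4 in Irf4-/- samples, against 16.6, 33.9, 55.6, 31.4 and 34.0 in Irf4+/+ samples, and the genotypes overlapped widely. Its log2 fold change was -0.33 with a 95% confidence interval of -1.07 to 0.41 (adjusted p = 0.479 in limma). Of 19 other type I and type III interferon genes listed, 8 had a probe set of their own. Ifna1 alone was bright enough to test, at 33.8 ± 14.8 in Irf4-/- and 43.3 ± 20.2 in Irf4+/+ samples (mean ± SD of 5 arrays; log2 fold change -0.30, adjusted p = 0.535 in limma). The group means of the other 7 lay between 3.20 (Ifna9) and 25.2 (Ifnab).

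Transcripts of Il18, a cytokine stored as a precursor and related to IL-1, were higher in Irf4-/- samples, although the genotypes overlapped. Il18 read 38.2, 88.3, 61.6, 58.1 and 84.6 in Irf4-/- samples, against 59.8, 26.8, 41.2, 23.5 and 23.6 in Irf4+/+ samples. Irf4+/+ replicate 1 lay above Irf4-/- replicates 1 and 4, and Irf4+/+ replicate 3 lay above Irf4-/- replicate 1. This gave a log2 fold change of 0.81 with SE 0.264 (adjusted p = 0.0186 in limma), or 1.75-fold. The call was lost without Irf4-/- replicate 2 (adjusted p = 0.0568) or replicate 5 (adjusted p = 0.0516).

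Of the IFN-gamma receptor chains, Ifngr2 rose on 1 of its 2 probe sets and Ifngr1 was not called. Ifngr2, on its brighter probe set 1423557_at, read 596.6, 611.4, 589.5, 688.7 and 583.2 in Irf4-/- samples, against 293.1, 305.5, 268.5, 304.6 and 293.9 in Irf4+/+ samples. The genotypes lay far apart and each was tight, with a coefficient of variation of 7.02% in Irf4-/- and 5.09% in Irf4+/+ samples. In the fit the log2 fold change came to 1.05 with SE 0.0703 (adjusted p = 3.41e-09 in limma), or 2.06-fold.

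The other Ifngr2 probe set, 1423558_at, gave no such difference. It read 248.9, 180.4, 66.5, 278.5 and 201.9 in Irf4-/- samples, against 163.9, 189.1, 223.7, 159.5 and 246.6 in Irf4+/+ samples, with log2 fold change -0.13 (95% confidence interval -0.70 to 0.45, adjusted p = 0.752 in limma over 22535 probe sets). With the mean of the 2 probe sets the fitted Ifngr2 difference was 0.46 on the log2 scale (adjusted p = 0.0217), so the size of its rise rests on which probe set is read.

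Ifngr1, the ligand-binding chain, did not pass the test. It read 320.1, 380.7, 342.2, 309.6 and 307.3 in Irf4-/- samples, against 231.1, 336.2, 255.8, 304.3 and 278.3 in Irf4+/+ samples. The genotypes overlapped through Irf4+/+ replicate 2, and without it Ifngr1 was called (log2 fold change 0.31, adjusted p = 0.0174). With all arrays the log2 fold change was 0.24 (95% confidence interval 0.03 to 0.45 before adjustment, adjusted p = 0.0602).

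**Figure D2:**
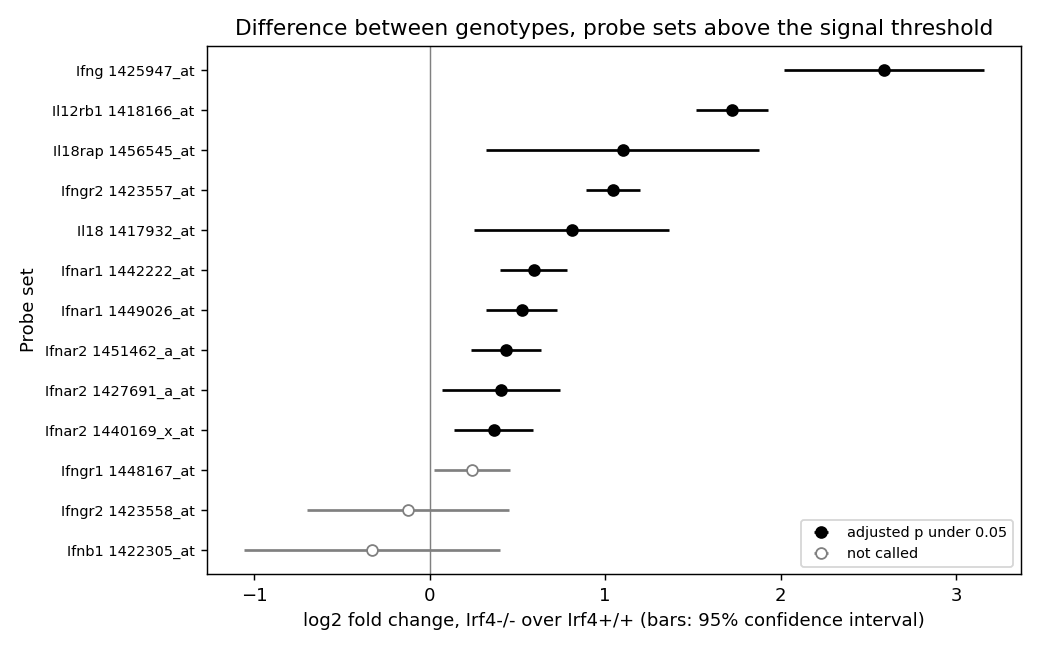
Log2 fold change of Irf4-/- over Irf4+/+ samples for the 13 member probe sets above the threshold, with 95% confidence intervals; filled points passed an adjusted p of 0.05 over all probe sets. The values run from -0.33 (Ifnb1) to 2.59 (Ifng), and the 2 Ifngr2 probe sets lie apart at 1.05 and -0.13.

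Both chains of the type I interferon receptor rose. Ifnar1, which docks Tyk2, read 527.1, 516.0, 507.9, 531.7 and 548.0 in Irf4-/- samples, against 276.6, 404.6, 405.3, 391.4 and 356.6 in Irf4+/+ samples. Every Irf4-/- array was above every Irf4+/+ array. On the log2 scale the change was 0.52 with SE 0.0939 (adjusted p = 0.000204 in limma), or 1.44-fold. Its other probe set, 1442222_at, gave 267.5 ± 12.8 in Irf4-/- and 175.3 ± 17.6 in Irf4+/+ samples, with log2 fold change 0.59 (adjusted p = 4.86e-05 over all probe sets).

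Ifnar2, the chain that binds type I interferon most tightly, read 336.4, 293.2, 317.6, 275.3 and 319.5 in Irf4-/- samples, against 249.9, 197.1, 240.4, 202.1 and 243.5 in Irf4+/+ samples. The genotypes again did not overlap. This gave a log2 fold change of 0.44 with SE 0.0918 (adjusted p = 0.000875 in limma), or 1.35-fold. The 2 dimmer probe sets of Ifnar2 gave log2 fold changes of 0.36 (1440169_x_at, adjusted p = 0.0109) and 0.41 (1427691_a_at, adjusted p = 0.0492) over all probe sets, and in both the genotypes overlapped. With no threshold 1427691_a_at was not called (adjusted p = 0.0870).

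Ifnar2, Il10rb, Ifnar1 and Ifngr2 follow each other on mouse chromosome 16, in the RefSeq order of GRCm38.p6. Il10rb, a chain shared by the receptors for IL-10 and type III interferon, was lower on its brightest probe set. It read 214.6 to 271.5 in Irf4-/- samples and 280.1 to 354.9 in Irf4+/+ samples, with log2 fold change -0.33 (SE 0.0873, adjusted p = 0.00553 in limma). Averaging its probe sets ended the call, at -0.029 on the log2 scale (adjusted p = 0.876). Next to Ifngr2, Tmem50b rose (log2 fold change 1.16, adjusted p = 1.07e-08), Dnajc28 was not called (0.06, adjusted p = 0.915) and Gart, an enzyme of purine synthesis, fell (-0.95, adjusted p = 2.02e-09). These neighbours were chosen by position after the member values were seen.

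**Figure D3:**
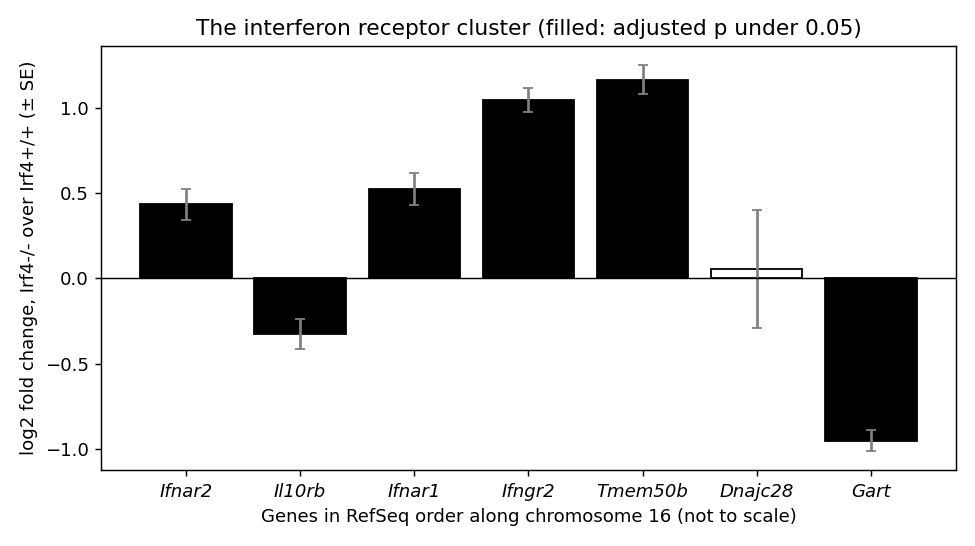
Log2 fold change (± SE of the limma fit) of Irf4-/- over Irf4+/+ samples for genes in their order along chromosome 16, from Ifnar2 to Gart; filled bars were called. The 3 member genes stand at 0.44, 0.52 and 1.05 and Il10rb at -0.33, each on its brightest probe set; with the mean of probe sets Ifngr2 is at 0.46 and Il10rb at -0.029 (not called).

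The IL-12 receptor chain Il12rb1, which is shared with the IL-23 receptor, was higher in every Irf4-/- array than in any Irf4+/+ array. It read 489.4, 409.1, 500.7, 533.6 and 503.6 in Irf4-/- samples, against 142.9, 118.4, 150.4, 157.9 and 141.2 in Irf4+/+ samples. The lowest Irf4-/- array was more than 250 signal units above the highest Irf4+/+ array. The mean was 487.3 ± 46.7 in Irf4-/- and 142.2 ± 14.8 in Irf4+/+ samples (mean ± SD of 5 arrays each), and the log2 fold change came to 1.72 with SE 0.0948 (adjusted p = 3.00e-10 in limma), or 3.30-fold. It kept between 1.61 and 1.78 under all 23 alternatives.

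Its partner Il12rb2, the chain that recruits Stat4, lay just under the signal threshold. It read 42.9, 27.0, 19.0, 47.9 and 47.5 in Irf4-/- samples, against 10.2, 1.8, 4.1, 4.5 and 23.0 in Irf4+/+ samples, and Irf4+/+ replicate 5 lay above Irf4-/- replicate 3. With no threshold its log2 fold change was 1.5 (adjusted p = 0.00259 in limma over 18193 genes). Of the ligand's subunits, Il12a read 139.2 ± 25.2 in Irf4-/- and 138.4 ± 12.4 in Irf4+/+ samples (adjusted p = 0.982), and Il12b read 30.3 ± 7.85 in Irf4-/- and 21.4 ± 9.91 in Irf4+/+ samples (mean ± SD of 5 arrays; adjusted p = 0.288). In the IL-12 family list, 3 of 6 tested genes rose, 1 fell and 2 were not called (median log2 fold change 0.39). Of all tested genes, 23.3% were called higher, 23.9% lower and 47.2% either way, and 6 genes are few to set against these shares. Ebi3, a subunit of IL-27, rose 1.95-fold (adjusted p = 3.74e-09), Stat4, the transcription factor of IL-12 signalling, rose 1.28-fold (adjusted p = 0.000564), and Il6st, the shared chain gp130, fell by 0.57 on the log2 scale (adjusted p = 0.000389).

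The IL-18 receptor chains were dim and noisy. Il18rap, the accessory chain, read 47.1, 63.7, 29.1, 70.5 and 41.8 on probe set 1456545_at in Irf4-/- samples, against 16.8, 7.7, 20.0, 60.9 and 9.1 in Irf4+/+ samples. Irf4+/+ replicate 4 lay inside the Irf4-/- range and the other Irf4+/+ arrays lay below it. In the fit the log2 fold change came to 1.10 with SE 0.371 (adjusted p = 0.0223 in limma), or 2.14-fold. The call was lost without Irf4-/- replicate 2 or 4 or Irf4+/+ replicate 2 or 5, with adjusted p from 0.0565 to 0.0603. Without Irf4+/+ replicate 4 the log2 fold change was 1.45 (adjusted p = 0.00132). A second probe set of Il18rap, 1421291_at, read 1.9 to 18.7 in Irf4-/- and 1.9 to 13.7 in Irf4+/+ samples and stayed under the threshold.

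Il18r1, the ligand-binding chain, read 2.8, 5.4, 4.9, 4.6 and 7.2 in Irf4-/- samples, against 6.1, 3.7, 32.2, 21.5 and 9.8 in Irf4+/+ samples. Most of these values lie in the dim range, and the genotypes overlapped. With no threshold its log2 fold change was -0.66 (adjusted p = 0.147 in limma over 18193 genes). Il18r1 and Il18rap are neighbours on chromosome 1.

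Of 6 tested inflammasome genes 4 rose, 1 fell and 1 was not called (median log2 fold change 0.45), where 23.3% of all genes were called higher and 47.2% either way. Casp1, the protease that cleaves pro-IL-18, rose by 0.59 on the log2 scale (adjusted p = 7.28e-07), its adaptor Pycard 1.83-fold (adjusted p = 2.29e-08) and the pore protein Gsdmd 1.70-fold (adjusted p = 1.23e-05), while Casp4 fell by 0.90 on the log2 scale (adjusted p = 1.46e-08). Of 10 tested IL-1 family and adaptor genes 3 rose, 1 fell and 6 were not called (median 0.18), close to the 23.3% of all genes called higher and 47.2% called either way. Sigirr, an inhibitory receptor of the family, rose 1.51-fold (adjusted p = 1.43e-06), the kinase Irak2 2.09-fold (adjusted p = 2.18e-06) and the antagonist Il1rn 1.61-fold (adjusted p = 0.0213), and the ubiquitin ligase Traf6 fell by 0.55 on the log2 scale (adjusted p = 0.00031). Il18bp, the soluble decoy for IL-18, read 61.3 ± 17 in Irf4-/- and 51.0 ± 15.1 in Irf4+/+ samples (mean ± SD of 5 arrays; adjusted p = 0.451).

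Most transcription factors that drive Ifng were called higher too. Of 5 tested, 4 were called higher and Runx3 was not (adjusted p = 0.474), with a median log2 fold change of 1.15. Tbx21, which encodes T-bet, read 112.2, 88.1, 98.7, 94.5 and 121.8 in Irf4-/- samples, against 14.3, 10.1, 7.4, 11.7 and 5.0 in Irf4+/+ samples. The genotypes lay wide apart, and the log2 fold change came to 2.67 with SE 0.223 (adjusted p = 4.84e-08 in limma). Its Irf4+/+ mean of 9.7 was under 25.1. Tbx21 thus passed the threshold only through the Irf4-/- arrays and could hardly have been called lower. Eomes, a related factor of cytotoxic lymphocytes, rose 2.57-fold (adjusted p = 2.31e-05) and the homeobox factor Hlx 2.22-fold (adjusted p = 2.13e-06).

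Markers of natural killer cells, the textbook source of IFN-gamma, were also higher in Irf4-/- samples. All 11 of 11 tested were called higher (median log2 fold change 2.30), and their summed signal was 11877 to 16260 in Irf4-/- and 1405 to 1598 in Irf4+/+ samples. Gzma and Gzmb, granule proteases that averaged 8256 and 4868 in Irf4-/- and 818.6 and 362.0 in Irf4+/+ samples and so made up most of the sum, rose 9.94-fold and 13.2-fold (adjusted p = 5.51e-13 and 3.43e-14). In Irf4+/+ samples 5 of the 11 markers had a mean under 25.1. These 5 passed the threshold only through the Irf4-/- arrays. Within Irf4-/- samples, Ifng and the summed markers, mostly Gzma and Gzmb, were both lowest in replicate 4, while Il12rb1 was highest there. Replicate 1 had the highest sum, 16260, and the second lowest Ifng signal, 86.2. Macrophage markers were called higher for 3 of 6 tested, among them Adgre1 (3.87-fold, adjusted p = 4.6e-11) and Cd68 (2.60-fold, adjusted p = 4.08e-09), with a summed signal of 1272 to 1482 in Irf4-/- and 470.2 to 538.7 in Irf4+/+ samples. The macrophage genes C1qa, C1qb, Cd14 and Itgam were under 25.1 on average in either genotype. Of the T cell list the CD3 genes Cd3e, Cd3d and Cd3g were under 12 signal units on average in either genotype, and of 4 tested genes Cd5 rose, Cd28 fell and Cd8a and Lat were not called. In these bulk cultures more cells of a type and more RNA per cell cannot be told apart, and the part of these markers in the rise of Ifng, Il12rb1, Il18rap and Il18 was not tested.

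**Figure D4:**
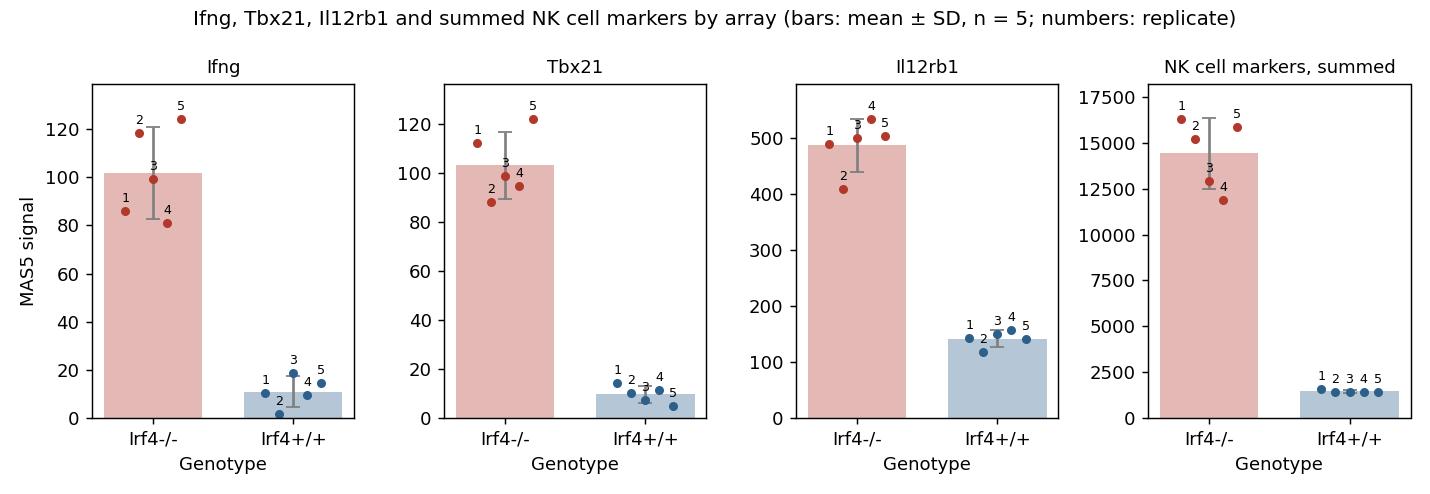
MAS5 signal of Ifng, Tbx21 and Il12rb1 and the summed signal of 11 natural killer cell markers in each array (points numbered by replicate), with the mean ± SD of 5 arrays as bars, Irf4-/- left of Irf4+/+. Most of the summed signal comes from Gzma and Gzmb. In every panel all Irf4-/- arrays lie above all Irf4+/+ arrays, and replicate 4 is the lowest Irf4-/- array for Ifng and for the summed markers but the highest for Il12rb1, and replicate 1 has the highest sum with the second lowest Ifng.

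Downstream of the receptors, most signalling genes rose. Of 8 tested signalling genes 6 rose, Il10rb fell on its brightest probe set but was not called when its probe sets were averaged (adjusted p = 0.876), and Ifnlr1, the type III receptor chain, was not called (median log2 fold change 0.39). Irf9, the DNA-binding subunit of the type I complex, read 773.1 to 1009 in Irf4-/- and 262.5 to 338 in Irf4+/+ samples (2.88-fold, adjusted p = 6.15e-10 in limma). Stat2, which is in the same complex, rose 2.17-fold (adjusted p = 1.19e-06). The receptor kinases rose less: Jak2 1.46-fold, Jak1 1.34-fold and Tyk2 1.27-fold, with adjusted p of 3.15e-06, 5.22e-06 and 0.00161.

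Most inhibitors of the same receptors were called higher. Of 11 tested 8 rose, Ptpn11 and Pias2 fell and Ptpn2 was not called (median log2 fold change 0.52). Usp18, which blocks signalling at Ifnar2, read 143.4 to 186.7 in Irf4-/- and 8.4 to 43.8 in Irf4+/+ samples (5.44-fold, adjusted p = 4.85e-07). Socs1, an inhibitor of JAK kinases, rose 3.54-fold (adjusted p = 3.54e-10), Socs3 1.65-fold (adjusted p = 5.09e-06) and the phosphatase Ptpn6 1.52-fold (adjusted p = 2.61e-06).

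Among genes that sense nucleic acids and induce type I interferon, more rose than fell, while Ifnb1 itself was not called. Of 14 tested 8 rose, Mavs and Cgas fell and 4 were not called (median log2 fold change 0.59). The RNA sensor Ifih1 rose 6.00-fold (adjusted p = 1.43e-10), the Z-nucleic acid sensor Zbp1 5.93-fold (adjusted p = 9.49e-11), Dhx58 3.01-fold (adjusted p = 3.51e-10) and the transcription factor Irf5 1.76-fold (adjusted p = 5.78e-08). Several of these genes are induced by interferon themselves.

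Most targets of either interferon rose. Of 15 tested genes induced mainly by IFN-gamma 13 rose, 1 fell and Cxcl10 was not called (median log2 fold change 1.88). The GTPase gene Iigp1 read 1495 to 2506 in Irf4-/- and 62.0 to 78.5 in Irf4+/+ samples (25.1-fold, adjusted p = 1.71e-14 in limma). Gbp2, a guanylate-binding protein, read 6022 to 7043 in Irf4-/- and 549.1 to 776.3 in Irf4+/+ samples (9.49-fold, adjusted p = 2.38e-14), and Gbp7 and Gbp6 rose 8.30-fold and 8.23-fold. The one that fell was Ido1, a tryptophan-degrading enzyme, which read 59.8 to 113.1 in Irf4-/- and 805.5 to 916.1 in Irf4+/+ samples (log2 fold change -3.17, adjusted p = 7.14e-12). Cxcl9 and Nos2, further IFN-gamma targets, were under the threshold. Of 18 tested type I targets 17 rose and Bst2 was not called (median 1.83). Of the 17, Ifit1, Oas3, Oasl2, Rtp4 and Ddx60 averaged under 25.1 in Irf4+/+ samples. They passed the threshold only through the Irf4-/- arrays and could hardly have been called lower. Among the 17 were Oas1a (12.7-fold, adjusted p = 3.43e-14), Herc6 (4.77-fold, adjusted p = 3.00e-11), Rtp4 (415.8 to 475.5 in Irf4-/- and 1.9 to 19.4, under the threshold, in Irf4+/+ samples, adjusted p = 4.31e-11) and Xaf1 (5.66-fold, adjusted p = 2.15e-10). Most of these targets answer both types of interferon, so the lists do not separate the ligands, and earlier results on these arrays had already shown such targets to be higher.

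**Figure D5:**
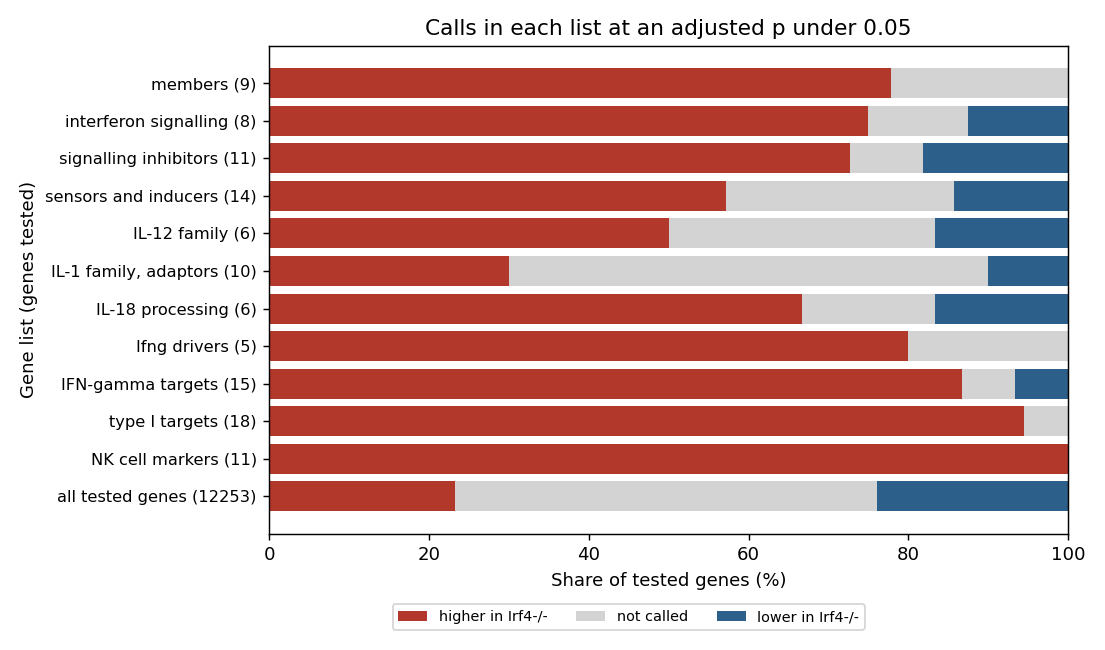
Share of tested genes called higher (red), not called (grey) and called lower (blue) in Irf4-/- samples for each list, with the number tested in brackets. Among all 12253 genes 23.3% were higher and 23.9% lower, against 7 of 9 members, 13 of 15 IFN-gamma targets and 17 of 18 type I targets higher. Some listed genes, such as Ifng, Il18rap, Tbx21 and Rtp4, averaged under 25.1 in Irf4+/+ samples and passed the threshold only through Irf4-/- arrays. Some lists share genes (Stat4, Eomes, Usp18 and Irf7), so the bars are not independent.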

How the data were processed

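RNA of 5 Irf4-/- and 5 Irf4+/+ B cell cultures was labelled from 6 ug each, per the labels' protocols. Per the submitters' processing notes, the authors used MAS5, and the deposited table gives 1 intensity on a linear scale for each probe set of an array. The MAS5 version and scaling target are not stated in the labels. The mean without the outer 2% of values was 250 on every array, so no scaling was added. Precision is limited by the number of arrays.

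Of 45101 probe sets, 34945 had 1 gene symbol, updated through gene IDs of a RefSeq table. Signals became log2(signal + 7.9), the 20th percentile of all values. Fold changes are on this scale and understate changes of dim genes. Probe sets with a mean under 25.1, the 40th percentile, were left out, and each gene took its brightest probe set. The 12253 genes, and separately 22535 probe sets, were fitted in limma 3.58.1 (R 4.3.3; lmFit, eBayes with trend) on genotype, with Benjamini-Hochberg adjustment. Every adjusted p-value comes from limma. The fit was tested on simulated data with 50, 100 and 50 genes changed 1.5-fold, 2-fold and 4-fold. It recovered 70%, 77% and 88% of them, with 11 false calls, so a gene that was not called may still differ. Fewer genes were changed there than were called here.

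Members and lists were chosen with earlier results of these data known. The text names all members, their receptor partners, up to 4 called genes with the smallest p and no overlap per list, and the leading markers. Any further gene was chosen once its values were known. Alternatives were other pseudocounts, thresholds, scalings, variance models, weighting of arrays, a replicate block, other probe set choices and each array left out. Same-numbered arrays deviated from their group means with correlations of -0.040 to 0.051, which gives no sign of pairing by number. Whether the samples were paired is not stated.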

Additional observations from a re-analysis of the deposited data

Results flagged for a closer look

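Among 15 probe sets and 2 genotypes, 5 groups of 5 arrays held 1 value far from the others, where chance gives about 1 group in 20. Ifngr2 on probe set 1423557_at read 688.7 in Irf4-/- replicate 4, with the next array at 611.4, so that array widened a difference which the other arrays also showed. Ifnar2 on probe set 1427691_a_at read 218.2 in Irf4-/- replicate 1, with the next at 146.2, and 78.3 in Irf4+/+ replicate 2, with the next at 113.6. Both Ifnar2 values lie on the side of their own group's mean that enlarges the difference, and no array of the brightest Ifnar2 probe set stood apart in this way. Il18rap on probe set 1456545_at read 60.9 in Irf4+/+ replicate 4, with the next at 20.0. Its dim probe set 1421291_at read 13.7 in Irf4+/+ replicate 5, with the next at 5.2.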

How the results depend on the processing

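Over 23 alternatives the members called higher numbered 5 to 8 and those called lower 0, and 7 to 10 member probe sets were called over 21 alternatives. Calls over all genes ran between 5429 and 6003. Ifng, Il12rb1, Ifngr2, Ifnar1 and Ifnar2 were called higher under each alternative that gave them a value, and Ifnb1 under none. Il18rap was not called with array weights (log2 fold change 0.88, adjusted p = 0.0736). Ifngr1 was called with the threshold at the 60th percentile (0.24, adjusted p = 0.0488) and with the replicate block (0.24, adjusted p = 0.0442), and the block changed no other member's call. With each array left out in turn, Il18rap ranged from 0.91 to 1.45 (called in 6 of 10), Il18 from 0.70 to 0.99 (8 of 10) and Ifngr1 from 0.18 to 0.31 (1 of 10). The cause of these lost or gained calls was not tested. Whether the study had such a block is not stated, and same-numbered arrays gave no sign of pairing. With the threshold at the 60th percentile Ifng, Ifnb1, Il18 and Il18rap had no value. Signal near background limits Ifnb1, Il18, Il18r1, Il18rap and the Irf4+/+ level of Ifng.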

Other observations

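Leukocyte genes outside the circuit also differed. Of 4 tested granulocyte markers S100a8 and S100a9, calcium-binding proteins of neutrophils, rose in Irf4-/- samples (adjusted p = 1.04e-09 and 4.87e-09 in limma). S100a8 read 198.6 to 352.0 in Irf4-/- and 11 to 31.8 in Irf4+/+ samples, and S100a9 126.3 to 288.9 in Irf4-/- and 2.4 to 13.2 in Irf4+/+ samples, where both means were under the threshold, so no fold is given. Elane and Mpo were not called. Of 3 tested dendritic cell markers Zbtb46 rose 1.30-fold and Itgax was also called higher, and Flt3, a growth factor receptor, read 53.2 ± 15.6 in Irf4-/- and 417.3 ± 29.7 in Irf4+/+ samples (mean ± SD of 5 arrays; log2 fold change -2.84, adjusted p = 1.95e-10).

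For each called member, the 3 tested genes whose deviations from the genotype mean were most like it were found over the 10 arrays. They were Srsf9, Rmi2 and Eng for Ifng (r = 0.92 to 0.96), St6gal1, Dpy19l4 and Fam160b1 for Ifngr2 (0.93 to 0.97), Trpm5, Gm5141 and Fbxl16 for Ifnar1 (0.95 to 0.98) and Mrps6, Uqcc2 and Lyrm2 for Ifnar2 (0.95 to 0.96). For Il12rb1 they were Etohd2, Pcyt1b and 4933432I09Rik (0.93), for Il18 Extl1, Ly6i and Shisa4 (0.91 to 0.94) and for Il18rap Nfatc2ip, Gm5481 and Mapk8 (0.88 to 0.91). Each is the highest of 12253 values from arrays that share their scaling, so these are descriptions only.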
